A study of Mus musculus with 2 samples.

Results

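The interleukin 1 family signals through a small set of ligands and receptors, and 10 of its genes, out of 32287 features counted, are described here by cell class in mouse muscle after nerve crush: the agonists *Il1a*, *Il1b*, *Il1f9*, *Il18* and *Il33*, the receptor antagonist *Il1rn*, the decoy receptor *Il1r2* and the receptor chains *Il1r1*, *Il1rap* and *Il1rl1*. They were chosen by symbol, with earlier results of these data known, and all 10 were found in the files. *Il1f9* is named *Il36g* in the current mouse annotation.

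IL-1α and IL-1β bind the receptor IL-1R1, which then recruits the accessory chain IL-1RAP and signals through MYD88 to NF-κB. The antagonist IL-1RN occupies IL-1R1 without recruiting IL-1RAP, and IL-1R2 binds ligand but has no signaling domain. The same accessory chain serves the IL-33 receptor (encoded by *Il1rl1*, also called ST2) and the IL-36 receptor, whereas IL-18 uses a receptor pair of its own. IL-1β and IL-18 are made as precursors that caspase-1 cleaves inside inflammasomes, so that the transcript level measured here is not the level of active cytokine. In injured tissue IL-1β is known mainly as a product of infiltrating myeloid cells, and IL-33 as one of stromal cells.

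Cells came from hind limb muscle 7 days after a peroneal nerve crush (7 dpi) in male mice aged 10 to 16 weeks. The labels name the tibialis anterior (TA) and gastrocnemius (GTN) as the muscles taken, whereas the study's text names only the TA for this experiment, and it was the TA that was injected, so it is not known whether uninjected muscle was included. One library was made from mice given a control goat anti-mouse IgG and one from mice given an antibody that neutralizes secreted phosphoprotein 1 (SPP1-nAb), with 2 μg in 10 μL given at injury and every 2 days after it, so that nerve crush and repeated injection were common to both. Digested muscle was pooled from an unstated number of mice and sorted on a GFP reporter of Schwann cells (SCs). The labels name the strain C57BL/6J, where the study's methods give *S100GFP*-tg mice for the antibody experiment, and call both libraries GFP-positive, while the protocol describes collection of GFP-positive and GFP-negative cells, and most of the cells were myeloid. With 1 library per condition no test between conditions was possible, and every interval below is a 95% interval that covers counting error only, not variation between mice.

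After filtering, 21046 IgG cells (median 3659 unique molecular identifiers, UMIs) and 22282 SPP1-nAb cells (median 4581 UMIs) remained, and 163 barcodes occurred in both libraries. Cells were placed in 22 classes by marker genes that did not include any family member, and T and NK cells were joined. Each class name ending in "-like" rests on at least 3 markers detected in the cell. Mononuclear phagocytes made up 55.0% of the IgG cells and 65.7% of the SPP1-nAb cells, and were divided into states by marker lists named for leading genes such as *Arg1*, *Gpnmb* or those of MHC class II. Mesenchymal-like cells made up 11.7% and 4.92%, and were divided into a *Smoc2* fibro-adipogenic, a *Pi16* adventitial and a remaining group. Neutrophil-like cells numbered 473 and 1090, and Schwann-like cells 415 and 447. Levels are given as CPM, in which each gene's UMI sum was scaled by the total UMIs of its class and library. A summed level cannot tell fewer expressing cells from less RNA per cell, so shares of cells are also given at a fixed depth of 2000 UMIs per cell.

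Most of the 10 genes lie in tight genomic groups. On chromosome 1 (GRCm39), *Il1r2*, *Il1r1* and *Il1rl1* follow one another on the plus strand from 40113239 to 40504575. On chromosome 2, *Il1f9* and *Il1rn* lie between 24072000 and 24241506, and *Il1b* and *Il1a* lie on the minus strand between 129140291 and 129213059. The *Il1b* gene overlaps the antisense long noncoding RNAs *Il1bos* and *Gm14023*, and *Il18* overlaps the opposite-strand genes *Bco2* and *Tex12*. The sequences just before the transcription start given by RefSeq are shown for *Il1a* and *Il1b*, whose levels were both highest in neutrophil-like cells, and for *Il18*, which had another distribution. They were read from the RefSeq promoter table (GRCm38.p6, 10 of 10 members matched) and placed on GRCm39 by exact match. Capitals mark TATAAA, the TATA box letters. The *Il1b* stretch is chr2:129213060-129213159 (minus strand), the *Il1a* window is chr2:129151903-129151932 (minus strand), and the *Il18* stretch is chr9:50465900-50465999 (plus strand). The *Il1a* window lies inside the annotated GRCm39 gene, whose upstream end is at 129152098, and all its bases are in annotated exons, so it is not upstream of that gene model.
Il1b: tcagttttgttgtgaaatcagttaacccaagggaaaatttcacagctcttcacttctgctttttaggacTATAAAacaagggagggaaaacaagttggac
Il1a: aggaagacTATAAAaaggcagagaagcctg
Il18: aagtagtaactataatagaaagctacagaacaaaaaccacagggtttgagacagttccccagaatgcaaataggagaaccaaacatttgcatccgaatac
The TATAAA letters began 31 bases before the RefSeq start of *Il1b* and 32 bases before that of *Il1a*, and were not in the 100 bases shown for *Il18*. Searched on both strands over the 250 bases before the start, they were present in 12.4% of 32851 promoters and in 5 of 15 member promoters, of 4 genes. These included *Il18*, with a match 175 bases before the start, and the mesenchymal gene *Il33*, with matches 203 and 29 bases before its 2 listed starts. Such a match is a description of letters and not evidence of a bound factor.

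*Il1b* was a myeloid transcript in both libraries. Mononuclear phagocytes held 73.3% of its UMIs in the IgG library and 76.3% in the SPP1-nAb library, and the few neutrophil-like cells held 9.55% and 10.6%. Neutrophil-like cells had the highest level of the 22 classes, 15967 CPM with IgG and 10754 CPM with SPP1-nAb. *Arg1* phagocytes were second with IgG at 3880 CPM but had 2500 CPM with SPP1-nAb, under cDC2-like cells (2643 and 3029 CPM), which are antigen-presenting dendritic cells, and monocyte phagocytes (2811 and 2833 CPM).

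Further down, MHC-II-high phagocytes had 1612 CPM of *Il1b* with IgG and 1891 CPM with SPP1-nAb. Interferon-response phagocytes had 1240 and 1153 CPM, and *Gpnmb* phagocytes, which carry lipid-handling genes, had 851 and 892 CPM, and in both states the order of the libraries turned with 20% of cells removed as doublets. Resident macrophage phagocytes, marked by *Lyve1*, *Folr2* and *Cd163*, were the lowest phagocyte state, with 132 CPM with IgG and 345 CPM with SPP1-nAb. The plot of levels by class shows this myeloid gradient beside the stromal distribution of the receptor genes.

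**Figure D1:**
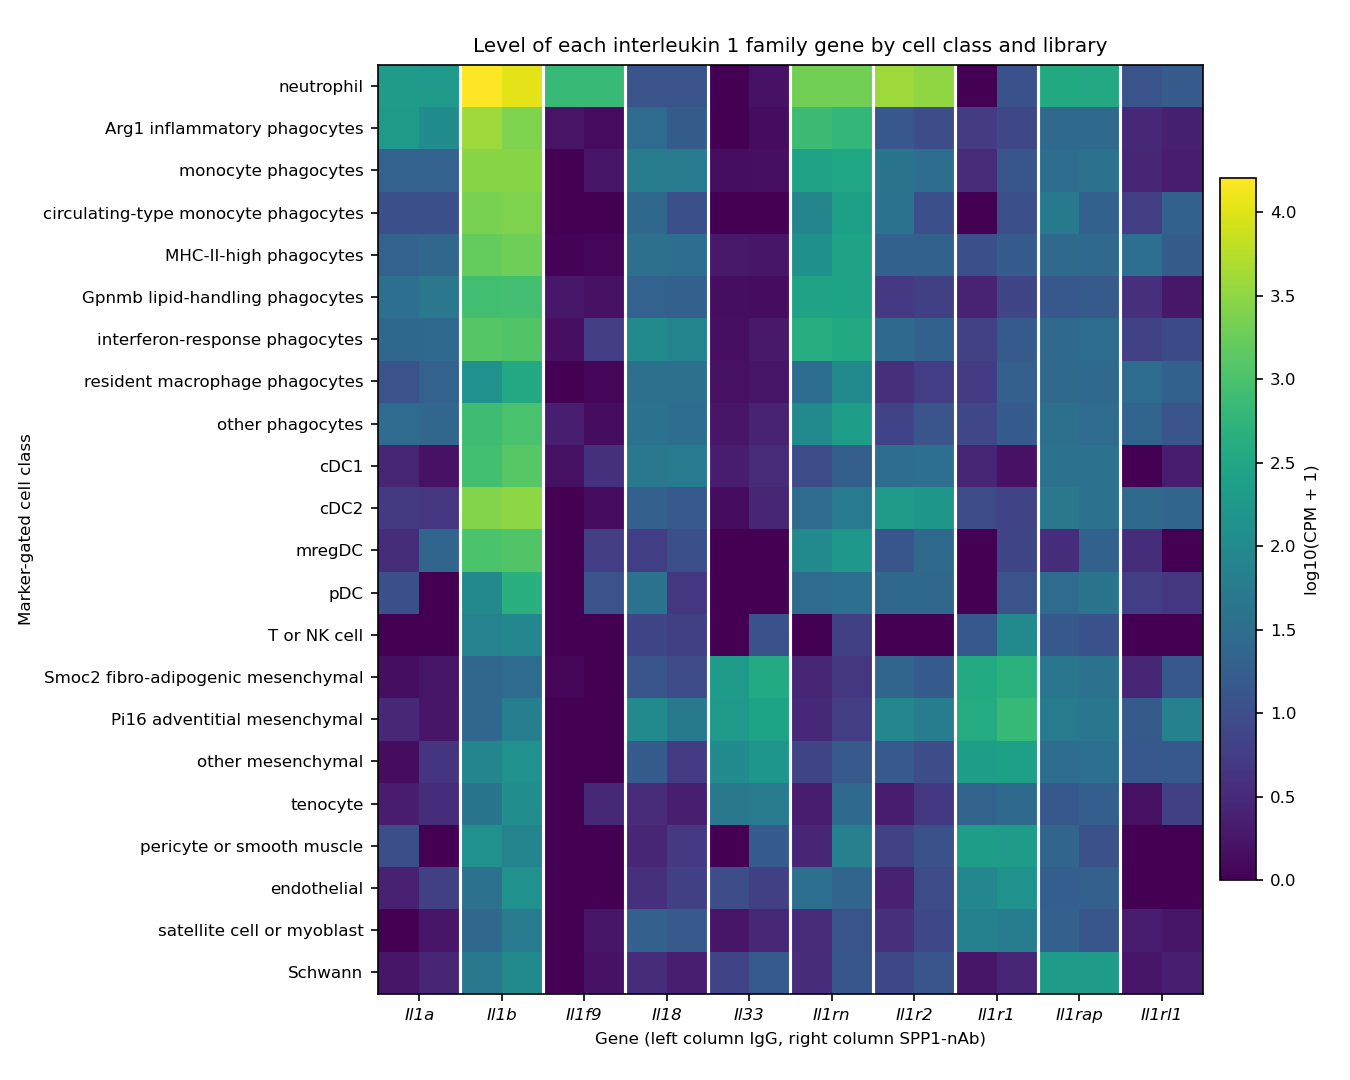
Level of each of the 10 genes (columns, with the IgG library on the left and the SPP1-nAb library on the right of each pair) in 22 marker-gated classes (rows), as log10(CPM + 1) by color. The ligands *Il1a*, *Il1b* and *Il1f9*, the antagonist *Il1rn* and the decoy *Il1r2* are brightest in the neutrophil row, whereas *Il33* and *Il1r1* are brightest in the mesenchymal rows and *Il1rap* in the neutrophil and Schwann rows.

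Between the libraries, *Il1b* was lower with SPP1-nAb in neutrophil-like cells and *Arg1* phagocytes, but not in cDC2-like cells or monocyte phagocytes. Over all kept cells the order was the opposite, 1246 CPM with IgG and 1551 CPM with SPP1-nAb. Beside this stood 823 and 2076 *Arg1* phagocytes and 473 and 1090 neutrophil-like cells. The log2 ratio of SPP1-nAb over IgG was -0.57 (-0.61 to -0.53) in neutrophil-like cells and -0.63 (-0.66 to -0.61) in *Arg1* phagocytes. It was 0.20 (0.15 to 0.24) in cDC2-like cells, 0.01 (-0.02 to 0.04) in monocyte phagocytes and 0.23 (0.21 to 0.25) in MHC-II-high phagocytes. In resident macrophage phagocytes the ratio was 1.38 (1.27 to 1.49), and summed neutrophil markers in that class were 75.7 CPM with IgG and 82.2 CPM with SPP1-nAb, with 7 of 8 markers detected in each. At 2000 UMIs per cell, 11.1% of 1684 IgG resident macrophage phagocytes and 21.1% of 1058 SPP1-nAb cells carried an *Il1b* UMI, against 3.38% and 7.00% of satellite cell or myoblast-like cells, a class that should lack the transcript.

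Low *Il1b* levels outside the myeloid classes need the free-RNA background beside them. That background was estimated from C1q transcripts in satellite cell or myoblast-like, Schwann-like and tenocyte-like cells, which should lack them. It was 3.13% of UMIs with IgG and 3.83% with SPP1-nAb. Taken as equal in all classes, it would place 39.0 and 59.5 CPM of *Il1b* in each. Satellite cell or myoblast-like cells had 24.9 and 51.2 CPM, and *Smoc2* mesenchymal-like cells had 23.2 and 28.2 CPM, at or under that level. Satellite cell or myoblast-like and Schwann-like cells were among those that gave the estimate, so for them the comparison is not independent. Schwann-like cells had 49.5 CPM with IgG and 101 CPM with SPP1-nAb. In the same Schwann-like cells the 8 phagocyte markers, all detected in both libraries, summed to 240 and 542 CPM, and the neutrophil markers (6 of 8 detected) to 44.8 and 101 CPM. Their part in the difference was not tested.

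*Il1a*, the other agonist of IL-1R1, was highest in neutrophil-like cells (211 CPM with IgG and 180 CPM with SPP1-nAb) and *Arg1* phagocytes (177 and 105 CPM). *Gpnmb* phagocytes came next with 33.3 and 45.9 CPM, and the other phagocyte states had less. The log2 ratio was -0.75 (-0.87 to -0.62) in *Arg1* phagocytes and 0.46 (0.25 to 0.68) in *Gpnmb* phagocytes, where it turned to -0.26 when the states were taken from Leiden clusters. In resident macrophage phagocytes *Il1a* was 10.7 CPM with IgG and 19.9 CPM with SPP1-nAb, a ratio of 0.89 (0.46 to 1.33) that rested on 76 and 108 UMIs. Among *Arg1* phagocytes thinned to 2000 UMIs, 22.2% of IgG cells with an *Il1b* UMI also carried *Il1a*, compared with 4.44% of the cells without *Il1b*. The corresponding shares with SPP1-nAb were 17.8% and 3.04%, so *Il1a* was detected more often in cells with *Il1b* in both libraries, a description over cells of 1 library each.

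*Il1f9*, which encodes the IL-36 receptor agonist IL-36γ, was found mainly in neutrophil-like cells. These had 717 CPM with IgG and 702 CPM with SPP1-nAb, and held 62.7% and 79.1% of its UMIs. Most of the remainder, 32.6% and 15.9%, lay in cells that met no marker gate. In *Smoc2* and *Pi16* mesenchymal-like cells it was at 0 or 1 UMI per library. Its closest profile over the 44 class-by-library levels was that of *Cstdc4* (Pearson r = 0.96 on log2(CPM + 1)), a cystatin-domain gene, and *Stfa2l1*, itself a neutrophil marker here, had r = 0.92. The r values are a description over points that share libraries. The transcripts *Il1f5*, *Il1f6*, *Il1f8* and *Il1f10* were each at 1 UMI or less per library.

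*Il18* was spread over several classes instead of following *Il1b*. Interferon-response phagocytes had 99.4 CPM with IgG and 79.3 CPM with SPP1-nAb, monocyte phagocytes 57.9 and 50.1 CPM, and cDC1-like cells 46.8 and 51.7 CPM. The genes with the most similar profile were the interferon-inducible *Ifi207* (r = 0.73) and *Ifi204* (r = 0.73). *Pi16* mesenchymal-like cells also carried *Il18*, at 102 CPM (91.4 to 114) with IgG and 48.7 CPM (37.4 to 62.5) with SPP1-nAb, a log2 ratio of -1.07 (-1.49 to -0.67). At 2000 UMIs, 19.2% of 526 IgG and 8.90% of 146 SPP1-nAb cells of this class had an *Il18* UMI. In *Arg1* phagocytes the ratio was -0.85 (-1.17 to -0.52), from 28.9 and 16.1 CPM.

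*Il33*, an alarmin stored in the nucleus of stromal cells, was mesenchymal. Mesenchymal-like cells held 88.9% of its UMIs with IgG and 89.0% with SPP1-nAb. *Smoc2* mesenchymal-like cells had 213 CPM (202 to 224) with IgG and 376 CPM (360 to 393) with SPP1-nAb, a log2 ratio of 0.82 (0.73 to 0.92). *Pi16* mesenchymal-like cells had 186 and 270 CPM, a ratio of 0.54 (0.35 to 0.74), and tenocyte-like cells 47.1 and 55.0 CPM. Of the *Smoc2* cells thinned to 2000 UMIs, 24.9% of 1257 with IgG and 37.8% of 635 with SPP1-nAb had an *Il33* UMI, while none of the *Arg1* phagocytes did, which allows a share with an *Il33* UMI at that depth of up to 0.370% of 811 IgG cells and 0.148% of 2029 SPP1-nAb cells and sets no limit on cells that express the gene. At full depth *Arg1* phagocytes held 0 *Il33* UMIs with IgG and 5 with SPP1-nAb. Over all kept cells the order was the opposite, 32.5 CPM with IgG and 26.8 CPM with SPP1-nAb, beside 2453 and 1096 mesenchymal-like cells. *Adamtsl3*, *Serpina3n* and *Mmp2* had the profiles most like *Il33*, each with r = 0.94.

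*Il1rn*, the antagonist gene, was highest in neutrophil-like cells, as *Il1a* and *Il1b* were, and then in *Arg1* and interferon-response phagocytes. Neutrophil-like cells had 2026 CPM with IgG and 1997 CPM with SPP1-nAb, *Arg1* phagocytes 752 and 599 CPM, and interferon-response phagocytes 422 and 354 CPM. The largest differences between libraries lay in states where the gene was less abundant. MHC-II-high phagocytes had 130 and 271 CPM, a log2 ratio of 1.06 (0.99 to 1.13), and resident macrophage phagocytes 31.8 and 99.0 CPM, a ratio of 1.64 (1.41 to 1.87). In cDC2-like cells the ratio was 0.95 (0.53 to 1.37). In *Arg1* phagocytes it was -0.33 (-0.39 to -0.27). Over all kept cells *Il1rn* was 169 CPM with IgG and 280 CPM with SPP1-nAb.

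The number of *Il1rn* UMIs per 100 *Il1b* UMIs, which is compared here between classes and libraries and not read as a molar ratio, was 15.5 (15.2 to 15.8) over all phagocytes with IgG and 19.6 (19.3 to 19.9) with SPP1-nAb. It was 12.7 and 18.6 in neutrophil-like cells, 19.4 and 24.0 in *Arg1* phagocytes, and 8.04 and 14.3 in MHC-II-high phagocytes. In neutrophil-like cells the order of the libraries turned at 2000 UMIs per cell, where *Il1rn* was lower with SPP1-nAb by more than *Il1b* was. Only 14 IgG and 92 SPP1-nAb cells of that class reached this depth. *Gpnmb* phagocytes were alike in the 2 libraries, at 30.7 (29.1 to 32.4) and 30.9 (30.0 to 31.9). Interferon-response phagocytes went the other way, from 34.1 (32.5 to 35.7) with IgG to 30.7 (29.1 to 32.4) with SPP1-nAb. Among classes with at least 100 *Il1b* UMIs in each library, the lowest values were those of conventional dendritic cells, 0.92 and 1.36 in cDC1-like cells and 1.07 and 1.80 in cDC2-like cells, so that these cells carried *Il1b* with little antagonist transcript. Within *Arg1* phagocytes, 56.3% of IgG cells with an *Il1b* UMI also carried *Il1rn* at 2000 UMIs, compared with 47.6% of those without, and with SPP1-nAb the shares were 53.6% and 41.2%.

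**Figure D2:**
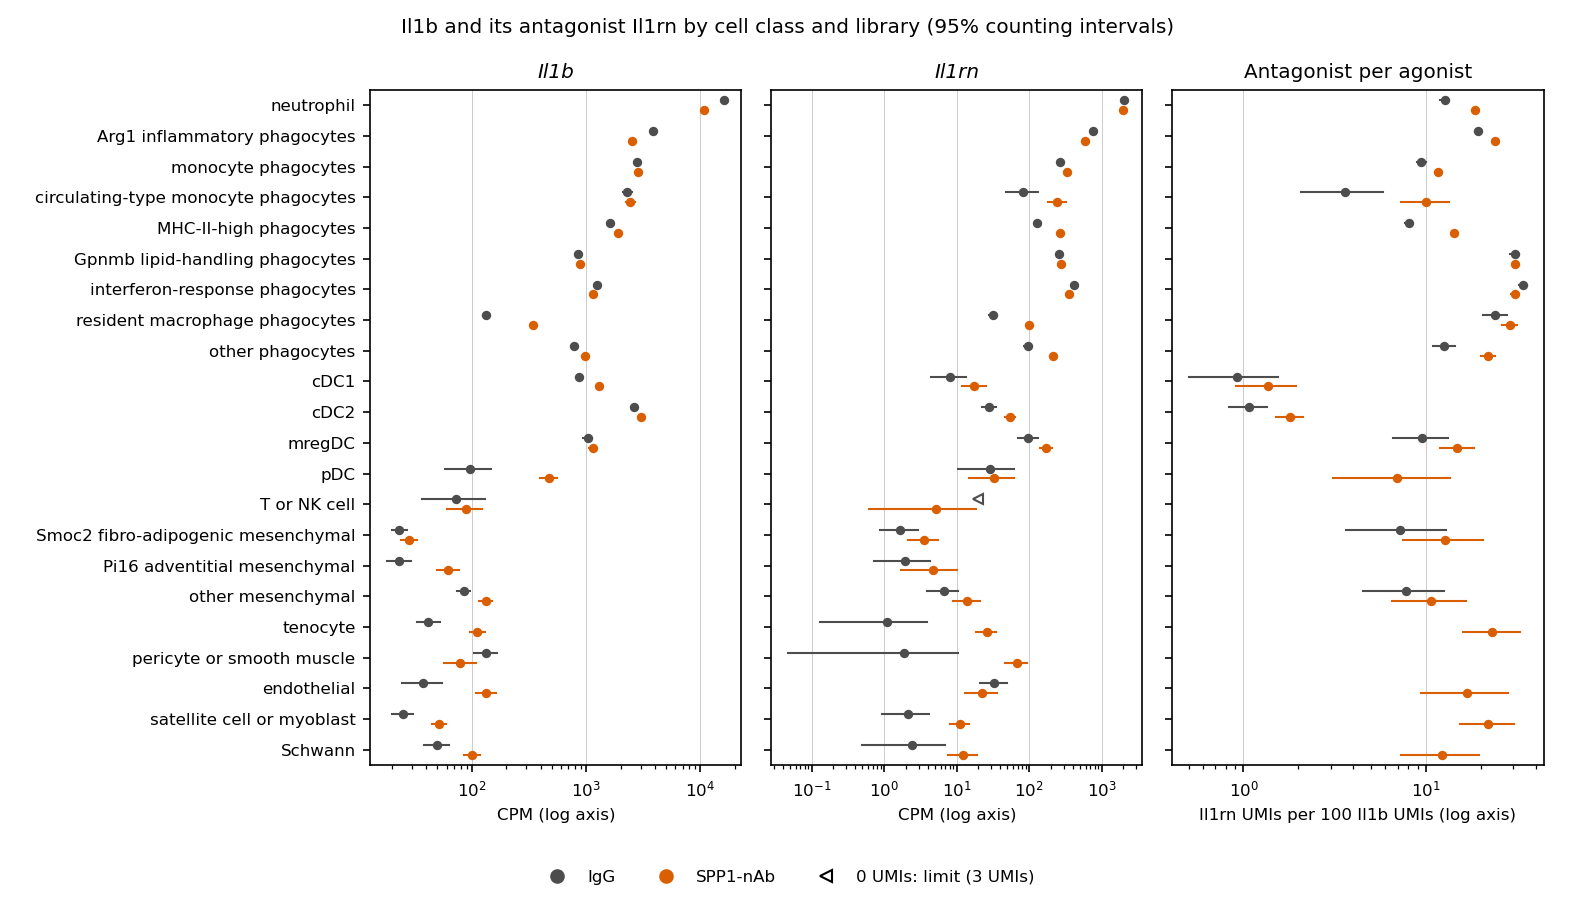
*Il1b* level, *Il1rn* level (both CPM, log axes) and *Il1rn* UMIs per 100 *Il1b* UMIs (log axis, drawn where a class and library has at least 100 *Il1b* UMIs) in 22 classes, for IgG (gray) and SPP1-nAb (orange), with 95% counting intervals; an open triangle marks 0 UMIs at the limit of 3 UMIs. Conventional dendritic cells have *Il1b* levels within the range of the phagocyte states of the same library, except cDC2-like cells with SPP1-nAb, which lie above all of them. They have about 1 to 2 antagonist UMIs per 100, left of every phagocyte state.

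*Il1r2*, the decoy receptor, had its highest level in neutrophil-like cells, 3908 CPM with IgG and 3211 CPM with SPP1-nAb, and these cells held 50.6% and 68.9% of its UMIs. cDC2-like cells were second with 185 and 167 CPM, and *Pi16* mesenchymal-like cells next with 87.7 and 60.5 CPM. Monocyte phagocytes had 40.7 and 31.7 CPM and resident macrophage phagocytes 2.82 and 4.79 CPM. Between the libraries none of the 10 classes with at least 100 UMIs reached 1.5-fold. Among all gene and class pairs with that many UMIs, 3.98% were higher and 4.34% lower. The *Il1r2* count is near these shares and is no result about the gene. The log2 ratio in neutrophil-like cells was -0.28 (-0.35 to -0.21). It turned to 0.53 at 2000 UMIs per cell, a depth that only 14 IgG and 92 SPP1-nAb neutrophil-like cells reached. Over all mesenchymal-like cells it was -0.75 (-1.01 to -0.50), from 36.4 and 21.6 CPM, beside *Pi16* cells that were 544 of 2453 mesenchymal-like cells with IgG and 149 of 1096 with SPP1-nAb.

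*Il1r1*, the signaling receptor of IL-1α and IL-1β, was the counterpart of that distribution. Mesenchymal-like cells held 80.3% of its UMIs with IgG and 66.9% with SPP1-nAb. *Smoc2* cells had 377 and 481 CPM, *Pi16* cells 383 and 655 CPM, pericyte or smooth muscle-like cells 215 and 200 CPM, endothelial-like cells 88.1 and 136 CPM, and satellite cell or myoblast-like cells 68.6 and 57.6 CPM. The log2 ratio was 0.77 (0.64 to 0.90) in *Pi16* cells and 0.35 (0.27 to 0.43) in *Smoc2* cells. At 2000 UMIs, 42.5% of the *Smoc2* cells with IgG and 51.5% with SPP1-nAb had an *Il1r1* UMI. Of the IgG *Smoc2* cells with *Il1r1*, 23.0% also had *Il33*, compared with 26.3% of those without it, and with SPP1-nAb the order was the opposite, at 39.4% and 36.0%.

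Phagocytes carried little *Il1r1*, and it was higher with SPP1-nAb. The level over all phagocytes was 5.91 CPM with IgG and 11.8 CPM with SPP1-nAb, where free RNA would give 2.13 and 2.00 CPM, and the log2 ratio was 1.00 (0.81 to 1.20). It was 2.42 (1.51 to 3.47) in monocyte phagocytes, from 11 and 97 UMIs, and 2.06 (1.47 to 2.68) in resident macrophage phagocytes, from 32 and 102 UMIs. At 2000 UMIs, 122 of 10700 IgG phagocytes and 326 of 13908 SPP1-nAb phagocytes had an *Il1r1* UMI. No UMI of any of the 8 mesenchymal markers was found in 83.6% of these IgG cells and 89.3% of these SPP1-nAb cells, against 85.9% and 88.7% of phagocytes without *Il1r1*. Cells with a strong marker score of another lineage had already been set aside as ambiguous, and high doublet scores removed. The part of mesenchymal RNA in these *Il1r1* UMIs was not tested.

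*Il1rap*, the shared accessory chain, separated Schwann-like cells from the other non-myeloid classes. Neutrophil-like cells had 356 CPM with IgG and 348 CPM with SPP1-nAb, and Schwann-like cells came second with 209 (184 to 235) and 205 (183 to 228) CPM. *Pi16* mesenchymal-like cells had 52.5 and 44.0 CPM, and *Gpnmb* phagocytes 13.2 and 14.6 CPM. At 2000 UMIs, 25.8% of 330 IgG Schwann-like cells and 29.3% of 396 SPP1-nAb cells had an *Il1rap* UMI. The same cells were nearly without *Il1r1*, with 1 UMI in the IgG library (0.80 CPM, 0.020 to 4.45) and 3 UMIs in the SPP1-nAb library (1.85 CPM, 0.38 to 5.42), where free RNA would give 2.13 and 2.00 CPM.

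Schwann-like cells without a UMI of *Reln*, which encodes the secreted protein reelin, had more *Il1rap*, 260 (222 to 303) CPM with IgG and 276 (240 to 316) CPM with SPP1-nAb, than those with one, 156 (126 to 190) and 139 (115 to 166) CPM. The intervals did not overlap in either library, but they cover counting error only, not spread between cells. The split was chosen after values were seen, so it is a description. *Il1rapl1*, a synaptic relative of the accessory chain that is not part of the chosen set, was also high in Schwann-like cells, at 235 CPM with IgG and 207 CPM with SPP1-nAb, beside 30.9 and 10.3 CPM in tenocyte-like cells. Between the libraries *Il1rap* did not reach 1.5-fold in any of the 15 classes with at least 100 UMIs, and the ratio in Schwann-like cells was -0.03 (-0.27 to 0.21). Among all gene and class pairs with that many UMIs, 3.98% were higher and 4.34% lower. The *Il1rap* count is near these shares and is no result about the gene.

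*Il1rl1*, the IL-33 receptor chain, was found mainly in phagocytes, which held 75.4% of its UMIs with IgG and 64.0% with SPP1-nAb. Gated group 2 innate lymphoid cells (28 over both libraries) and basophils (3) were under the 50 cells needed for a class. The level of *Il1rl1* in them is not described. MHC-II-high phagocytes had 33.8 CPM (31.1 to 36.7) with IgG and 16.7 CPM (15.1 to 18.4) with SPP1-nAb, a log2 ratio of -1.02 (-1.21 to -0.83). Resident macrophage phagocytes had 29.4 and 19.0 CPM, a ratio of -0.63 (-0.98 to -0.28). At 2000 UMIs, 5.92% of 4074 IgG and 3.38% of 4818 SPP1-nAb MHC-II-high phagocytes had an *Il1rl1* UMI. In *Pi16* mesenchymal-like cells the level was 14.3 CPM with IgG and 68.4 CPM with SPP1-nAb, but 12 and 11 cells carried it, and 10 cells held 95.5% and 98.9% of those UMIs. None of 6 mast cell markers was detected in that class in either library. Markers of group 2 innate lymphoid cells and basophils are not given for it, and the source of these UMIs was not tested.

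**Figure D3:**
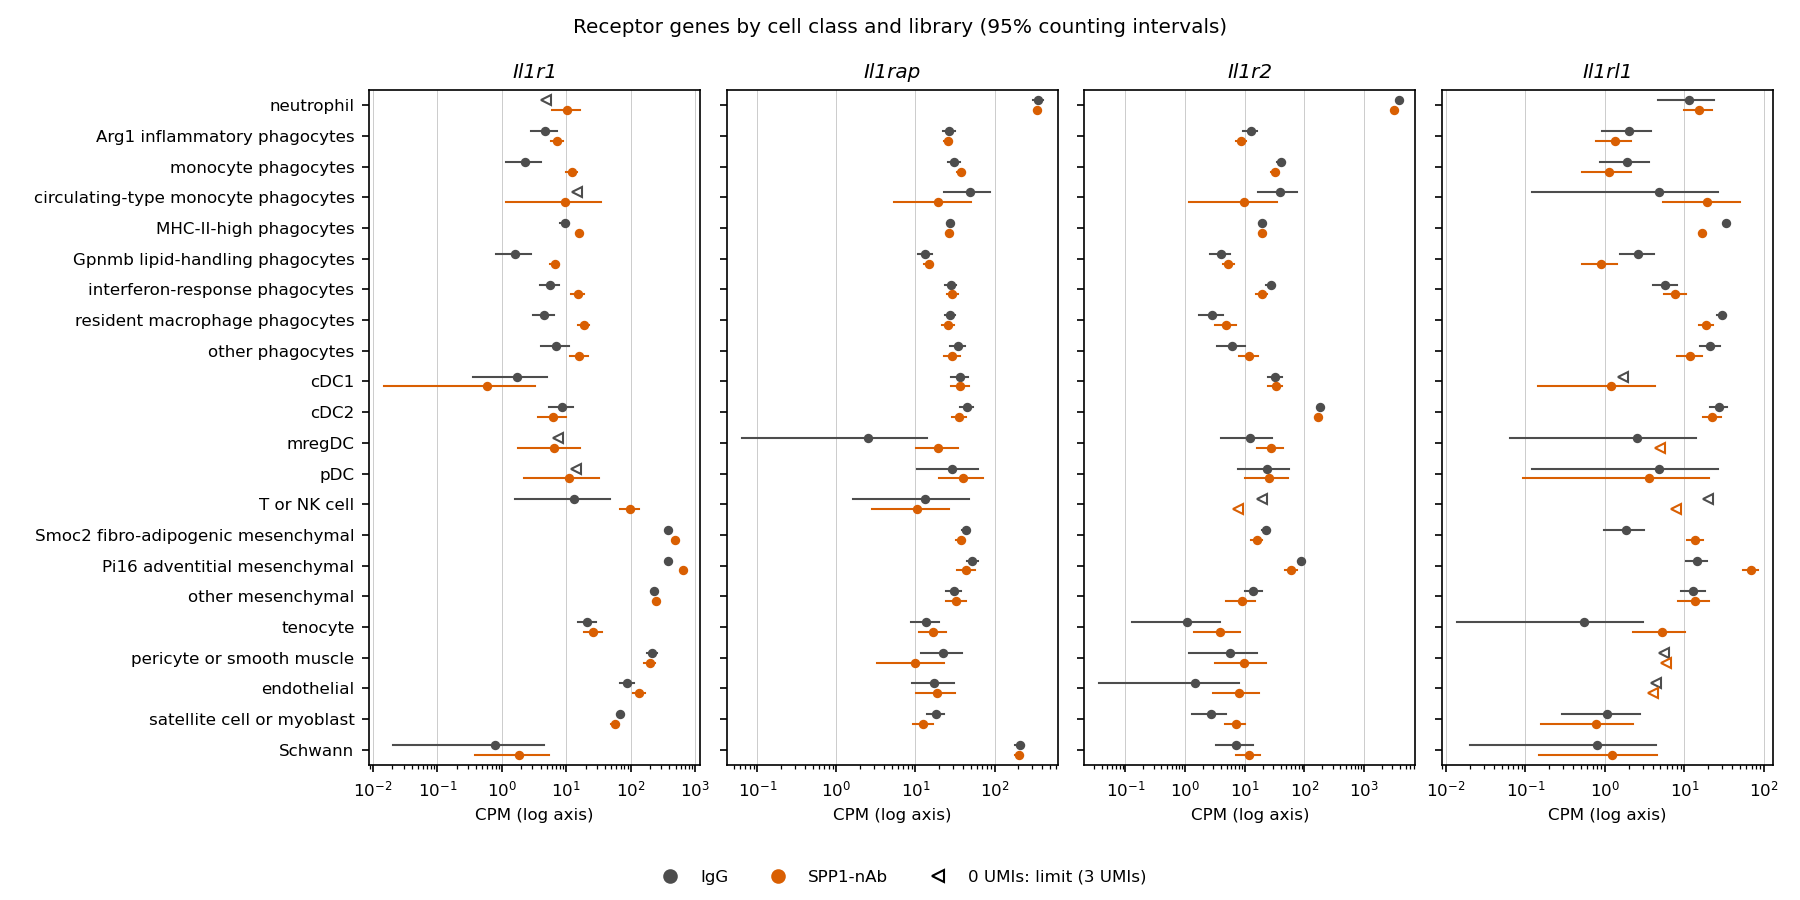
Levels (CPM, log axes) of *Il1r1*, *Il1rap*, *Il1r2* and *Il1rl1* in 22 classes for IgG (gray) and SPP1-nAb (orange) with 95% counting intervals; an open triangle marks 0 UMIs at the limit of 3 UMIs. *Il1r1* lies highest in the mesenchymal classes, *Il1r2* in neutrophil-like cells, and *Il1rap* in neutrophil-like and Schwann-like cells. *Il1r1* is at 1 and 3 UMIs in Schwann-like cells and at 0 and 17 UMIs in neutrophil-like cells.

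Over the whole set, 96 pairs of a gene and a class had at least 100 UMIs over both libraries. Of these, 24 (25.0%) were 1.5-fold or more higher with SPP1-nAb, beside a background of 3.98% among all such gene and class pairs, and 7 (7.29%) were 1.5-fold or more lower, beside 4.34%. The UMIs were summed over both libraries, so a pair could pass mainly through the library where it was high. *Il1b* in pDC-like cells did so, with 20 UMIs with IgG and 130 with SPP1-nAb. In endothelial-like cells it did so with 26 and 101 UMIs, and *Il1rl1* in *Pi16* cells also did. Most of the higher *Il1r1* pairs were phagocyte states with little of the gene, such as monocyte phagocytes at 2.30 and 12.3 CPM. Several of these states passed the filter mainly through the SPP1-nAb library, so the number of higher pairs depends in part on that filter. The higher pairs were 8 of 21 for *Il1b*, 8 of 12 for *Il1r1*, 5 of 10 for *Il1rn*, and 1 each for *Il1a*, *Il1rl1* and *Il33*. The lower pairs were 2 each for *Il1b*, *Il18* and *Il1rl1* and 1 for *Il1a*, and the lower *Il1b* value in pericyte or smooth muscle-like cells turned positive when no cells or 20% of cells were removed as doublets. Of the 8 higher classes for *Il1b*, 6 were neither phagocytes nor dendritic cells, and the remaining pair was resident macrophage phagocytes and pDC-like cells. In pDC-like cells, 10 cells held at least 97.7% of the UMIs. Free RNA, taken as equal in all classes, would give 39.0 CPM of *Il1b* with IgG and 59.5 CPM with SPP1-nAb. That estimate came from satellite cell or myoblast-like, Schwann-like and tenocyte-like cells, so for these the comparison is not independent. Of those 6 classes, satellite cell or myoblast-like cells had 24.9 and 51.2 CPM and *Pi16* cells 23.2 and 62.1 CPM. Endothelial-like cells had 37.6 and 134 CPM, and tenocyte-like cells 41.7 and 112 CPM. Schwann-like cells had 49.5 and 101 CPM, and the remaining mesenchymal-like cells 85.4 and 132 CPM. With free RNA subtracted, 22 of 91 pairs of the whole set were higher and 11 lower. No background share was computed for that setting, so these counts cannot be set against all genes. The median log2 ratio of all genes was within 0.07 of 0 in each class. Classes of 1 library share their cells and free RNA, so the pairs are not independent. The genes and classes were also chosen with earlier results of these data known, so the counts beside the background are a description.

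**Figure D4:**
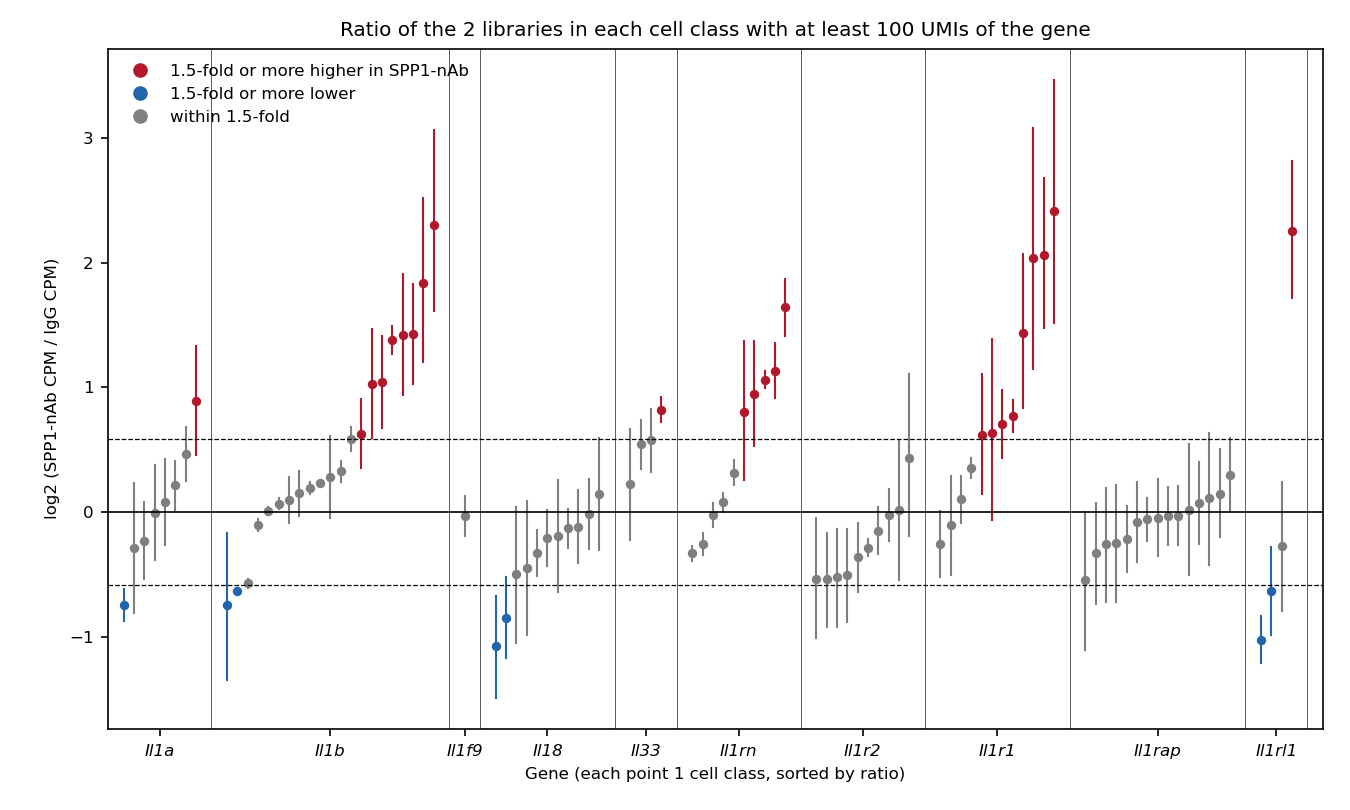
Log2 ratio of SPP1-nAb CPM over IgG CPM for each gene in each class with at least 100 UMIs (1 point per class, sorted within a gene), with 95% counting intervals; dashed lines mark 1.5-fold. *Il1r1*, *Il1rn* and *Il1b* have most of the 24 points above the upper line, and no point of *Il1r2* or *Il1rap* lies beyond either line. Among all gene and class pairs, 3.98% lie above the upper line and 4.34% below the lower.

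Genes that IL-1 is known to induce, a list of 24, were compared in the same way. The list too was chosen with earlier results of these data known, so its counts are a description. In *Smoc2* mesenchymal-like cells 7 of 22 counted genes were higher and none lower, with a median log2 ratio of 0.35 beside -0.02 for all genes, where 5.55% of all genes were higher and 6.95% lower. *Saa3*, an acute-phase protein, was 5.46 CPM with IgG and 65.7 CPM with SPP1-nAb, and the neutrophil chemokine *Cxcl5* 5.32 and 39.2 CPM. *Saa3* and *Cxcl5* passed the UMI filter mainly through the SPP1-nAb library, where they were high. The count of 7 of 22 thus depends in part on that filter. The matrix protease *Mmp3* was 227 and 616 CPM, the cytokine *Il6* 218 and 424 CPM, and the monocyte chemokine *Ccl7* 221 and 491 CPM. The NF-κB subunit gene *Nfkb1* is not in that list but in the signaling list, and was 546 and 1020 CPM. It was the only counted signaling gene past 1.5-fold there, which is near the background and no result about that list.

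In *Pi16* mesenchymal-like cells 8 of 21 counted genes of that list were higher and 1 lower (median 0.30, beside -0.04 for all genes; background 4.47% higher and 7.64% lower). The chemokine *Cxcl1* was 1241 CPM with IgG and 2805 CPM with SPP1-nAb, *Cxcl2* 132 and 421 CPM, and *Ccl2* 186 and 377 CPM. Free RNA was not subtracted from these values. Taken as equal in all classes, it would give more *Cxcl2* with IgG than the 132 CPM found, and less than the 421 CPM found with SPP1-nAb. The *Cxcl2* level with IgG was thus not above that background, and the part of free RNA in its ratio was not tested. The lower gene was *Cebpd*, a transcription factor, at 626 and 399 CPM. The remaining mesenchymal-like cells differed from both, with 2 of 19 higher and 6 lower (background 5.88% and 6.28%), including *Cxcl1* at 1080 and 633 CPM. Tenocyte-like cells had 6 of 17 higher and none lower (background 5.24% and 3.32%), led by *Mmp3* at 91.0 and 389 CPM.

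*Arg1* phagocytes had 7 of 19 counted genes of the list lower and none higher (background 3.47% higher and 3.27% lower). Their median log2 ratio for the list was -0.44, beside 0.07 for all genes. *Ccl2* was 4906 CPM with IgG and 2970 CPM with SPP1-nAb, the prostaglandin synthase *Ptgs2* 468 and 282 CPM, and the NF-κB inhibitor *Tnfaip3* 306 and 195 CPM. Resident macrophage phagocytes had 5 of 15 higher and none lower (background 3.77% and 3.91%). *Cxcl2* was 4480 and 7301 CPM there, *Cebpb* 1031 and 1625 CPM and *Il6* 18.8 and 35.4 CPM. Whether IL-1 had a part in any of these differences was not tested. In Schwann-like cells 2 of 8 were higher, *Cxcl2* at 145 and 283 CPM and *Cebpb* at 93.5 and 166 CPM, and the background there was 2.04% higher and 2.55% lower. Free RNA, 3.13% of UMIs with IgG and 3.83% with SPP1-nAb, was not subtracted from these values. All kept cells held 408324 and 709106 *Cxcl2* UMIs and 120522 and 222820 *Cebpb* UMIs. Taken as equal in all classes, free RNA would give more *Cxcl2* with IgG than the 145 CPM found, and less than the 283 CPM found with SPP1-nAb. For *Cebpb* it would give less than was found in each library. Schwann-like cells were among those that gave the estimate, so the comparison is not independent. The part of free RNA in the Schwann-like values was not tested.

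**Figure D5:**
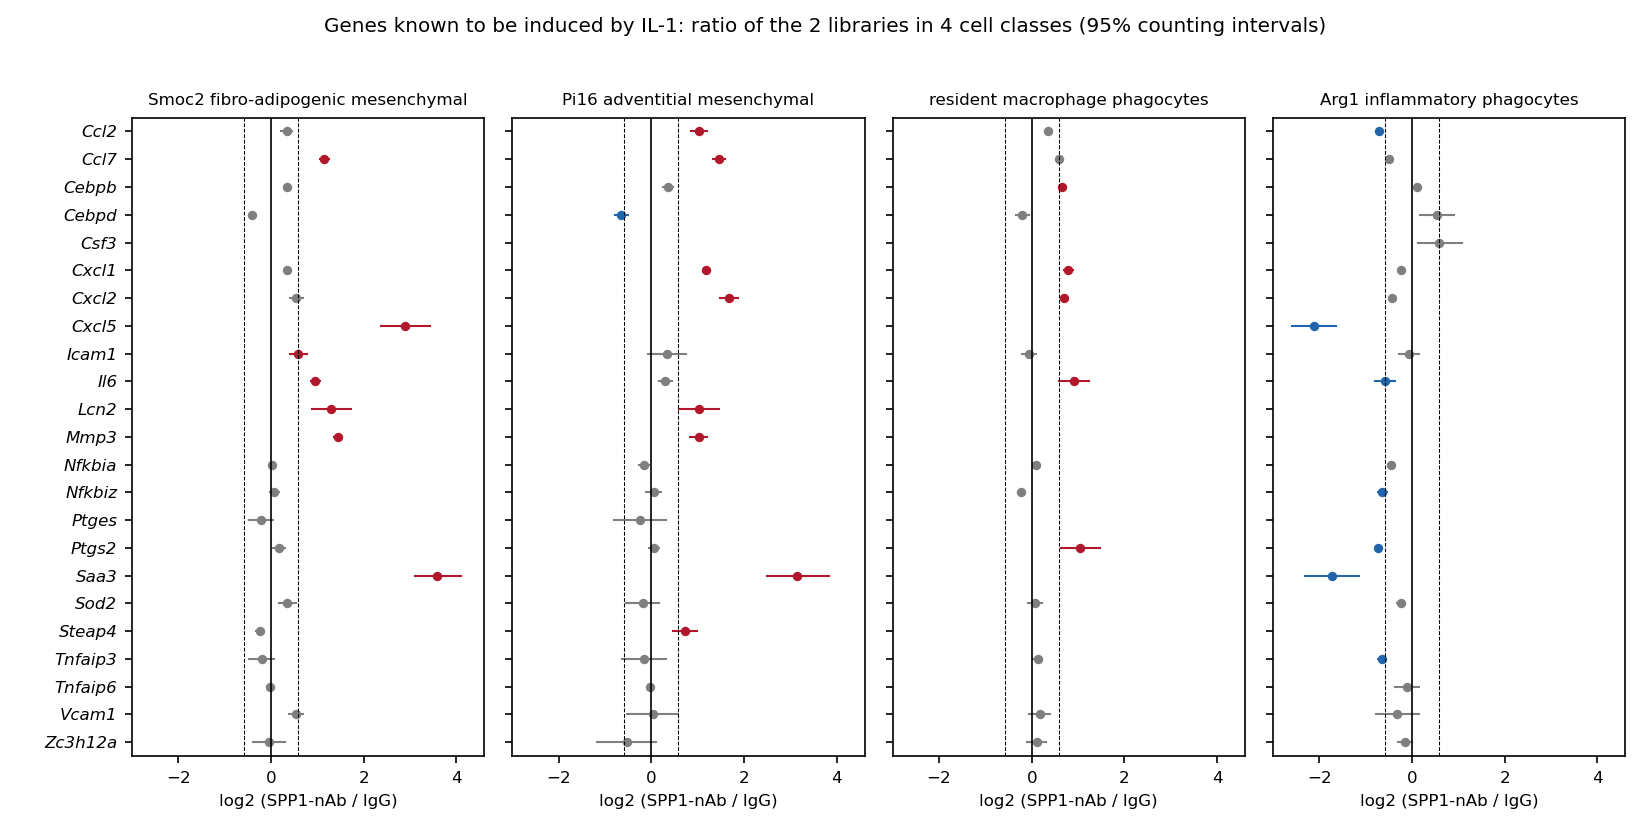
Log2 ratio of SPP1-nAb CPM over IgG CPM for genes known to be induced by IL-1 in 4 classes, with 95% counting intervals; red points are 1.5-fold or more higher, blue points 1.5-fold or more lower and gray points within, and genes with fewer than 100 UMIs in a class are left out. Red points gather in the *Smoc2* and *Pi16* panels, led by *Saa3*, and also lie in the resident macrophage panel, which has no blue point. Blue points gather in the *Arg1* panel, led by *Cxcl5*. In the *Smoc2* panel *Saa3* and *Cxcl5* passed the filter of 100 UMIs mainly through the SPP1-nAb library.

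Genes that process or transmit the signal were counted in the same way. Of the 12 genes of the processing list none was past 1.5-fold in *Arg1* phagocytes, and of the 19 signaling genes 1 of 18 counted was lower there, *Irak3*, an inhibitor of the pathway, at 52.2 and 33.5 CPM (background 3.27%). In resident macrophage phagocytes 1 of 18 signaling genes was higher, *Nfkb1* at 468 and 746 CPM (background 3.77%). In *Smoc2* mesenchymal-like cells 1 of 17 was higher and none lower (background 5.55% and 6.95%). A single gene of 17 or 18 is near these backgrounds and is no result about the signaling list. The inflammasome sensor *Nlrp3* was 1504 CPM with IgG and 1865 CPM with SPP1-nAb in neutrophil-like cells, and 102 and 166 CPM in resident macrophage phagocytes. The protease gene *Casp1* was 109 and 103 CPM in interferon-response phagocytes, the class with the highest *Il18* among phagocytes. In neutrophil-like cells, where 6.84% of all genes were higher and 4.67% lower, 2 of 4 counted genes of the processing list were higher, *Casp4* at 124 and 189 CPM and the adaptor *Pycard* at 37.6 and 87.4 CPM. *Pycard* had 23 UMIs with IgG and 144 with SPP1-nAb, and so passed the filter mainly through the library where it was high. Only 4 of the 12 genes were counted there, so this is no result about the processing list. The adaptor *Myd88* was 91.4 and 91.1 CPM in neutrophil-like cells. The IL-18 receptor gene *Il18r1* was 258 and 217 CPM in T or NK cell-like cells, and the soluble IL-18 inhibitor *Il18bp* was 47.4 and 43.6 CPM in interferon-response phagocytes. *Sigirr*, an inhibitory receptor of the family, was 20.2 and 23.9 CPM in endothelial-like cells.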

How the data were processed

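The authors aligned and counted each single-cell library with Cell Ranger (version 8.0.0 per the labels, 9.0.1 per the file headers) and deposited whole-number UMI counts per gene and barcode; the labels give build GRCm39. The ambient-RNA correction and integration described by the study are not in these counts. From the deposited counts, barcodes were kept if over 200 genes were detected and mitochondrial transcripts took under 10% of UMIs, and the 10% with the highest simulated-doublet score were removed per library (scikit-learn 1.9.0). A cell joined a class when at least 3 of the class markers had a UMI and that class had the highest mean z-score; 2563 IgG and 2283 SPP1-nAb cells met no gate and 124 in each library were ambiguous. Cells with exactly 3 markers were 8.23% of phagocytes, 16.3% of neutrophil-like, 6.11% of mesenchymal-like and 21.0% of Schwann-like cells. The share was larger in cDC1-like (29.0%), mregDC-like (34.9%), cDC2-like (55.9%) and satellite cell or myoblast-like cells (58.6%), whose gates were thus less firm. UMIs were summed per class and library and divided by the class total (CPM). Intervals were exact (Poisson for levels, Clopper-Pearson for shares and ratios; scipy 1.17.1). Levels at 0 were limited to 3 UMIs. Named genes were all members, *Casp1*, *Nlrp3*, *Myd88*, *Il18r1*, *Il18bp* and *Sigirr*, list genes with at least 100 UMIs past 1.5-fold, and the 3 most similar profiles per member; *Il1rapl1* and the split by *Reln* were added after values were seen. The members, classes and lists were chosen with earlier results of these data known. Calculations were tested on simulated data.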

Additional observations from a re-analysis of the deposited data

Results flagged for a closer look

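Ratios of a gene went in opposite directions in different classes for 4 genes, and with 1 library per condition the difference between classes was not tested. The log2 ratio of SPP1-nAb over IgG for *Il1a* was 0.89 in resident macrophage phagocytes and -0.75 in *Arg1* phagocytes, and for *Il1rn* it was 1.64 and -0.33 in the same classes. For *Il1b* it was 2.30 in pDC-like cells (20 and 130 UMIs), where the neutrophil markers summed to 33.5 CPM (2 of 8 detected) with IgG and 272 CPM (6 of 8) with SPP1-nAb, and -0.74 in pericyte or smooth muscle-like cells (71 and 40 UMIs), but this last value was 0.46 when all doublet-scored cells were kept and 0.49 when 20% of cells were dropped by that score, so that the opposite direction held under neither setting. The part of the neutrophil transcripts in the pDC-like value was not tested. For *Il1rl1* it was 2.25 in *Pi16* mesenchymal-like cells, carried by 12 and 11 cells, and -1.02 in MHC-II-high phagocytes.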

How the results depend on the processing

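No paired analysis was possible because each condition had 1 library. A second library per condition would be needed to place any ratio against variation between animals, neutrophil-like cells were shallow (median 1235 and 1382 UMIs, with 14 and 92 cells reaching 2000 UMIs), and pools, sort and condition cannot be told apart. With no doublets removed the log2 ratio was -0.57 for *Il1b* in *Arg1* phagocytes, -0.67 for *Il1b* and -0.45 for *Il1r2* in neutrophil-like cells, and 0.46 for *Il1b* in pericyte or smooth muscle-like cells, a reversal. With 20% removed it was -0.56 for *Il1b* in *Arg1* phagocytes, 0.96 for *Il1r1* and 2.94 for *Il1rl1* in *Pi16* cells, and reversed for *Il1b* in *Gpnmb* phagocytes (-0.0022), interferon-response phagocytes (0.065) and pericyte or smooth muscle-like cells (0.49). With 4 markers it was -0.54 for *Il1a*, -0.61 for *Il1b*, 0.078 for *Il1rn* and 0.30 for *Il1f9* in neutrophil-like cells, and 0.46 for *Il1r1* and 0.96 for *Il33* in *Smoc2* cells. With Leiden clusters it was -0.37 for *Il1b* in *Arg1* phagocytes and -0.26 for *Il1f9* in neutrophil-like cells, and reversed in *Gpnmb* phagocytes for *Il1a* (-0.26), *Il1b* (-0.51) and *Il1rn* (-0.23) and in *Arg1* phagocytes for *Il1r2* (0.24). With cells thinned to 2000 UMIs the neutrophil-like ratio was 0.40 for *Il1a*, -0.28 for *Il1b*, -0.57 for *Il1rn*, 0.53 for *Il1r2* (reversed) and 1.56 for *Il1rap*, on the few cells deep enough, *Il1rl1* in *Pi16* cells was 1.66, and *Il1r2* reversed in *Arg1* phagocytes (0.14) and *Smoc2* cells (0.17). With a median-of-ratios size factor *Il1b* was -0.70 in *Arg1* phagocytes and -0.61 in neutrophil-like cells. *Il1rn* UMIs per 100 *Il1b* UMIs over all phagocytes, IgG then SPP1-nAb, were 16.4 and 20.5 with no doublets removed, 14.4 and 18.7 with 20% removed, 16.1 and 20.2 with 4 markers, 15.1 and 19.1 with Leiden clusters, and 14.3 and 18.5 when thinned, higher with SPP1-nAb in each of these. The pairs 1.5-fold higher numbered 9 of 57 when thinned, 22 of 91 with free RNA subtracted and 66 of 183 with any UMI. Those lower numbered 11 of 91 with free RNA subtracted and 26 with any UMI. At 2-fold, 2 IL-1-induced genes were lower in *Arg1* phagocytes. The background shares given above hold only for 100 UMIs and 1.5-fold in the main setting. None was computed for these other settings, so these counts cannot be set against all genes. Leaving out the 163 shared barcodes, chosen after seeing the data, left all 121 ratios within their intervals and 23 pairs higher. The cause of these changes was not tested.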
